A study of Homo sapiens with 4 samples.

Results

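The S100 proteins are small calcium-binding proteins, and 10 members of the family (S100A2, S100A3, S100A4, S100A6, S100A10, S100A11, S100A13, S100A14, S100A16 and S100P) were described in DLD-1, a human colorectal cancer cell line. RNA of DLD-1-miR-21 cells, which stably carry a plasmid for human miR-21, was set against RNA of DLD-1-miR-Vec cells, which carried the control vector pCMV-MIR. Both lines were selected with G418 for 2 months, kept in G418 afterwards, and each was a pool of single clones picked for the green fluorescent protein reporter, so that a difference between the lines is a difference between 2 pools of clones. Human OneArray Plus microarrays, hybridized with RNA in a single color, were used at 2 per line. Nothing in the sources tells separate cultures from repeat measurements, so every error below is the spread between arrays, which may be technical. The family was chosen because S100P was strongly higher in DLD-1-miR-21 cells on these same arrays. The values of its members are therefore a description, with no test behind them. The 10 genes had 13 probes of their own, of 31741 probes and 18365 genes with such a probe on the array. S100A3, S100A14 and S100A16 had 2 probes each.

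S100 proteins fold around a pair of EF-hands, helix-loop-helix motifs that bind calcium, and mostly act as dimers. Calcium opens a surface through which they bind other proteins, among them annexins, cytoskeletal proteins and p53. They have no enzymatic activity. Several are also secreted and act on receptors such as RAGE (encoded by AGER) and TLR4. Most of their genes lie side by side on chromosome 1 in the epidermal differentiation complex, and S100P lies on chromosome 4. In colorectal tumors, S100P and S100A4 are widely studied for their links to invasion and metastasis.

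The sequences below are shown because the results turn on the overexpressed microRNA and on the members that stood furthest from equality. All were taken from RefSeq on GRCh38.p14. The mature microRNA that the plasmid encodes lies at chr17:59841273-59841294 on the plus strand. The capitals mark its seed, bases 2 to 8, the stretch that pairs with target messages. No probe of the array was annotated as MIR21, so its level was not measured here.
hsa-miR-21-5p: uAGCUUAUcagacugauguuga

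The promoter windows run from 250 bases before to 50 bases after the start of the gene. S100P, the member with the largest increase, is given at chr4:6693628-6693927 on the plus strand, where the capitals mark the letters TATAAA, 28 bases before the start. S100A2, the next largest increase, is given at chr1:153565795-153566094 on the minus strand, the outermost of its 2 annotated starts. The capitals mark an AP-1 site (TGAGTCA, here read on the opposite strand), 52 bases before the start. The other S100A2 window held no AP-1 letters. S100A16, the member with the largest decrease, is given at chr1:153613088-153613387 on the minus strand, the outermost of its 2 annotated starts.
S100P: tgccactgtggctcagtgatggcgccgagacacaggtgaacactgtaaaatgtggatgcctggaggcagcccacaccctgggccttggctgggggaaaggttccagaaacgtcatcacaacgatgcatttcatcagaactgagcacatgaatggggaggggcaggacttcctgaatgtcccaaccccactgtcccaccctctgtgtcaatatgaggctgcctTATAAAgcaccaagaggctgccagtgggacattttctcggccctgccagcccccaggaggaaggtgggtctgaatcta
S100A2: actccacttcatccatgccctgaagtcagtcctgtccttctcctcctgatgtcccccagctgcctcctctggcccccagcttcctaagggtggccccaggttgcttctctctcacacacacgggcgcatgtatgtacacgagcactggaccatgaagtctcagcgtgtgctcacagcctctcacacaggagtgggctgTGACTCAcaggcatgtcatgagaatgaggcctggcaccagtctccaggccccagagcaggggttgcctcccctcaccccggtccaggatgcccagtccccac
S100A16: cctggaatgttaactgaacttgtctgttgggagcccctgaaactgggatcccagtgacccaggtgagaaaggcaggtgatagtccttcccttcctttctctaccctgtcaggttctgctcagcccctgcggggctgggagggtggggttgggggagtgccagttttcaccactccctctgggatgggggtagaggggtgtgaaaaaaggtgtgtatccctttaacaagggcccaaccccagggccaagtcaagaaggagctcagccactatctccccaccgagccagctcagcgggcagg

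The 3 motifs searched, on both strands, were the TATA box (TATAAA), the AP-1 site (TGAGTCA) and the GC box (GGGCGG), in the 14 promoter windows of the 10 members. The TATA box letters stood in 3 of the 14 windows, those of S100P, S100A4 and S100A13, 28, 31 and 29 bases before the start. They stood in 11.5% of all 35114 promoter windows. AP-1 letters stood in 2 of the 14 windows (S100A2 and S100A3) and in 4.95% of all windows. The GC box letters stood in 6 of the 14 windows (S100A3, S100A6, S100A10, S100A11, S100A13 and S100A16), against 45.0% of all windows. None of the 3 motifs was found in the S100A16 window printed above, while its other window held the GC box letters 45 bases before the start. A match is only a run of letters and shows no binding.

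The deposited values are linear intensities from which a background had been subtracted, with medians of 255 and 339 for DLD-1-miR-21, against 571 for both DLD-1-miR-Vec arrays. They were therefore quantile-normalized, which gives every array the same distribution, with a median of 434. An offset of 50 was added before log2 was taken, and the log2 ratio is the mean of DLD-1-miR-21 minus that of DLD-1-miR-Vec, on the log2(intensity + 50) scale, which understates differences of dim probes. The fold differences below are on this scale too. Over all probes the median log2 ratio was 0.07 after normalization and -0.63 without it. Of 8 colorectal epithelial marker probes, 5 lay above the median on all 4 arrays. KRT19, an intermediate filament protein of simple epithelia, had normalized intensities of 146288 and 152750 in DLD-1-miR-21 cells, against 119214 and 134352 in DLD-1-miR-Vec cells. Its log2 ratio of 0.24 did not pass. EPCAM, in contrast, was called lower, with 33674 and 35734 in DLD-1-miR-21 cells and 76640 and 74803 in DLD-1-miR-Vec cells. Summed over the 8 epithelial marker probes, the intensities were 203426 and 209308 in DLD-1-miR-21 cells and 222284 and 233728 in DLD-1-miR-Vec cells. Of these probes, 3 were called higher (VIL1, KRT20 and CEACAM5) and 2 lower (EPCAM and KRT8). The pan-leukocyte marker PTPRC stayed at 64 or less on both of its probes on every array. The sums of the other marker lists were larger for DLD-1-miR-21. For 5 immune cell probes, mostly through CD14, they were 6839 and 8059 for DLD-1-miR-21 and 3078 and 2691 for DLD-1-miR-Vec. For 8 fibroblast probes they were 5982 and 7871 for DLD-1-miR-21 and 4440 and 3185 for DLD-1-miR-Vec, and for 3 endothelial probes 3125 and 2884 for DLD-1-miR-21 and 1648 and 1810 for DLD-1-miR-Vec. Their part in the results below was not tested. PDCD4, a known miR-21 target, gave -0.65 on the log2 scale (standard error 0.14, limma adjusted p = 0.0225) on its dimmer probe, with 62 and 46 in DLD-1-miR-21 cells and 108 and 117 in DLD-1-miR-Vec cells. Its brighter probe gave -0.08 (adjusted p = 0.617), and the decrease of the dimmer probe was -0.15 under median centring (adjusted p = 0.555) and lost its call with any 1 array left out.

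The members moved in both directions. Of the 13 probes, 7 (53.8%) passed an adjusted p of 0.05 in the limma fit over the whole array, where 44.8% of all probes did. Here 4 were higher, against a background of 23%, and 3 were lower, against 21.8%. As the family was chosen on this contrast, nothing is read from these counts. The median log2 ratio of the 13 probes was 0.17, and they ranged from -3.54 for S100A16 to 3.21 for S100P. On all 13 probes the arrays of the lines did not overlap, as was the case for 76.2% of all probes. The calls were sensitive to which arrays were kept. Without DLD-1-miR-21 replicate 2, 0 of 31741 probes passed and 12970 had an unadjusted p under 0.05 (limma), including 8 of the 13 member probes. The ratios moved little in that fit, with S100P at 3.21 and S100A16 at -3.23 and -3.50, and the smallest adjusted p among the named genes outside the family was 0.0551. Without DLD-1-miR-21 replicate 1, 5 of the 13 passed, and 5505 of all probes. Without DLD-1-miR-Vec replicate 2, 7 of the 13 passed, and 9219 of all probes.

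**Figure D1:**
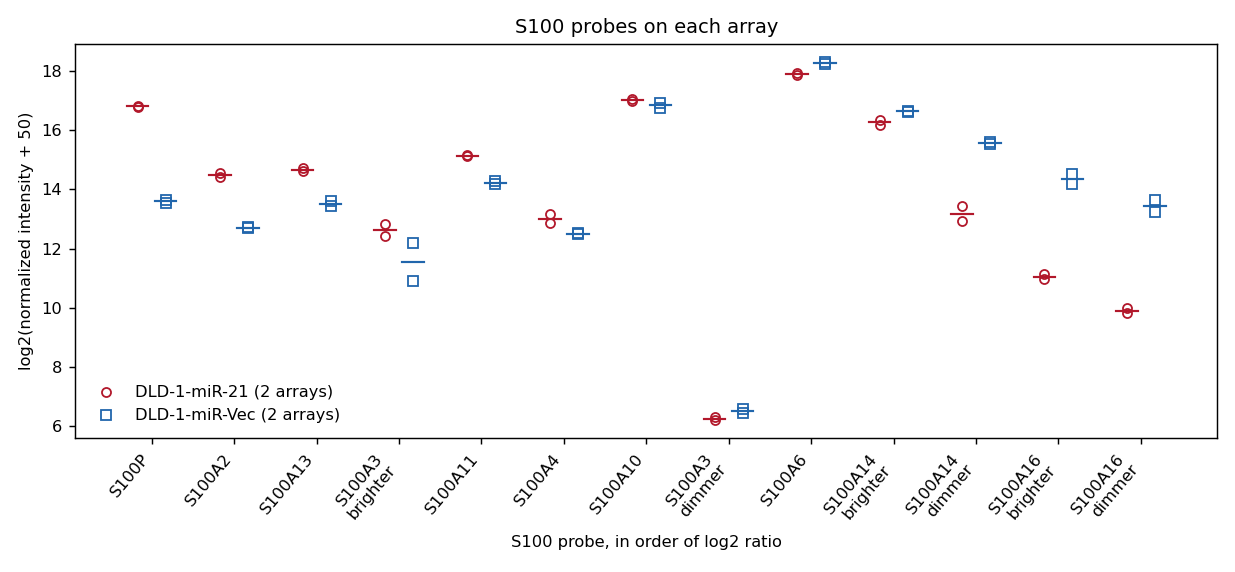
Log2(normalized intensity + 50) of each of the 13 S100 member probes on each of the 4 arrays, with DLD-1-miR-21 arrays left of DLD-1-miR-Vec arrays; each point is 1 array and each horizontal line the mean of a line's 2 arrays. The arrays of the lines do not overlap on any probe, the widest separations are those of S100P and of both S100A16 probes, and the brighter S100A3 probe has the widest spread within a line.

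S100P, which binds the cytoskeletal linker ezrin and, once secreted, RAGE, had the largest increase of the family. Its normalized intensities were 115839 and 112216 in DLD-1-miR-21 cells, against 12688 and 11879 in DLD-1-miR-Vec cells. The log2 ratio was 3.21 (standard error 0.12), or 9.25-fold, while the arrays within a line differed by 0.05 in DLD-1-miR-21 and 0.09 in DLD-1-miR-Vec on the log2 scale. This ratio stood at percentile 99.97 of all probes. The increase was present in the deposited intensities too, at 78221 and 75587 in DLD-1-miR-21 cells and 16988 and 17360 in DLD-1-miR-Vec cells, where the log2 ratio was 2.16 without any normalization. With 1 array left out at a time, it stayed between 3.15 and 3.30.

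S100A2, a mainly nuclear member that binds p53, followed with the next largest increase. Its normalized intensities were 23759 and 22027 in DLD-1-miR-21 cells and 6772 and 6539 in DLD-1-miR-Vec cells. Both DLD-1-miR-21 arrays lay well above the other line, with a log2 ratio of 1.77 (standard error 0.12), or 3.42-fold. Without normalization the direction was kept, at 0.59, from deposited intensities of 14459 and 13834 in DLD-1-miR-21 cells and 9165 and 9597 in DLD-1-miR-Vec cells. S100P and S100A2 were the only members above DLD-1-miR-Vec cells both with and without normalization.

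S100A13 takes part in the release of FGF1 and interleukin 1 alpha, which leave the cell without a signal peptide. It had 26694 and 24880 in DLD-1-miR-21 cells, against 12412 and 10925 in DLD-1-miR-Vec cells, a log2 ratio of 1.14 (standard error 0.13), or 2.21-fold. This difference was present only after normalization between arrays. The deposited intensities were nearly equal, at 16299 and 15587 in DLD-1-miR-21 cells and 16594 and 16051 in DLD-1-miR-Vec cells, and the log2 ratio without normalization was -0.03, against -0.63 for the median probe. Its call was also lost without DLD-1-miR-21 replicate 1, at a log2 ratio of 1.08. S100A13 overlaps S100A1 and CHTOP in the annotation, and the part of such overlaps in the signal was not tested.

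S100A11, the partner of annexin A1, had 36625 and 35408 in DLD-1-miR-21 cells, against 18538 and 19814 in DLD-1-miR-Vec cells. The log2 ratio was 0.91 (standard error 0.12), or 1.88-fold. The lines were well apart on this scale, but the call was lost under median centring, at 0.60, and without DLD-1-miR-21 replicate 1, at 0.87, and the ratio turned to -0.25 without normalization. RefSeq lists 10 pseudogenes named after S100A11, and whether they add to its probe was not tested.

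S100A4, which binds and loosens filaments of non-muscle myosin IIA, did not pass. Its normalized intensities were 9169 and 7356 in DLD-1-miR-21 cells and 5804 and 5662 in DLD-1-miR-Vec cells, a log2 ratio of 0.52 (standard error 0.16). The arrays did not overlap, but those of DLD-1-miR-21 cells differed among themselves by 0.32. Without normalization the ratio was -0.72, close to the -0.63 of the median probe. S100A10, also called p11, has lost calcium binding and forms a tetramer with annexin A2. It had 134352 and 128983 in DLD-1-miR-21 cells and 110794 and 123874 in DLD-1-miR-Vec cells. Its log2 ratio of 0.17 (standard error 0.13) did not pass and was near the 0.16 by which the DLD-1-miR-Vec arrays differed, and without normalization it was -0.77.

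S100A3, known from the hair cuticle, was the least certain member. Its brighter probe had 5406 and 7147 in DLD-1-miR-21 cells, against 4638 and 1850 in DLD-1-miR-Vec cells, with a log2 ratio of 1.07 (standard error 0.47) that did not pass. The DLD-1-miR-Vec arrays alone differed by 1.30, more than the lines did. With 1 array left out the ratio moved between 0.42 and 1.73, it passed without DLD-1-miR-Vec replicate 1, and without normalization it was -0.18 from deposited intensities that overlapped (3000 and 4438 in DLD-1-miR-21 cells, 6336 and 2683 in DLD-1-miR-Vec cells). Its dimmer probe had 29 and 24 in DLD-1-miR-21 cells and 38 and 46 in DLD-1-miR-Vec cells, all below the array median of 434, which held for no other member probe. Its log2 ratio of -0.27 (standard error 0.13) did not pass and turned to 0.24 under median centring.

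S100A6, or calcyclin, which binds CACYBP and SUGT1, had 250296 and 240182 in DLD-1-miR-21 cells and 308952 and 322875 in DLD-1-miR-Vec cells. The log2 ratio of -0.37 (standard error 0.12) did not pass, was -0.05 under median centring, and was -0.90 without normalization, against -0.63 for the median probe. The lines thus lay apart by more than the arrays within them did, which differed by 0.06 in each line, but by an amount that the choice of scaling moved.

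S100A14, a member found mostly in epithelia, gave different sizes on its 2 probes. The brighter probe had 83500 and 73474 in DLD-1-miR-21 cells, against 102181 and 100978 in DLD-1-miR-Vec cells, with a log2 ratio of -0.37 (standard error 0.13) that did not pass. The dimmer probe had 10965 and 7734 in DLD-1-miR-21 cells, against 47342 and 49516 in DLD-1-miR-Vec cells, with a log2 ratio of -2.39 (standard error 0.20), or 5.23-fold lower. Both probes had negative ratios under every scaling tried, and the DLD-1-miR-21 arrays differed by 0.50 on the dimmer probe. Which part of the transcript each probe reads was not examined.

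S100A16, a widely expressed member, had the largest decrease of the family, and its 2 probes gave nearly the same size. The brighter probe had 2194 and 1946 in DLD-1-miR-21 cells and 18564 and 23398 in DLD-1-miR-Vec cells, with a log2 ratio of -3.30 (standard error 0.17), or 9.87-fold lower. The dimmer probe had 964 and 859 in DLD-1-miR-21 cells and 12803 and 9691 in DLD-1-miR-Vec cells, with a log2 ratio of -3.54 (standard error 0.18), or 11.7-fold lower. These values stood at percentiles 0.306 and 0.23 of all probes. The decrease was wider still without normalization, at -4.53 and -4.67, and with 1 array left out the probes stayed between -3.49 and -3.13 and between -3.69 and -3.34. All 4 deposited intensities in DLD-1-miR-21 cells lay between 525 and 1249, and all 4 in DLD-1-miR-Vec cells between 14231 and 33710.

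**Figure D2:**
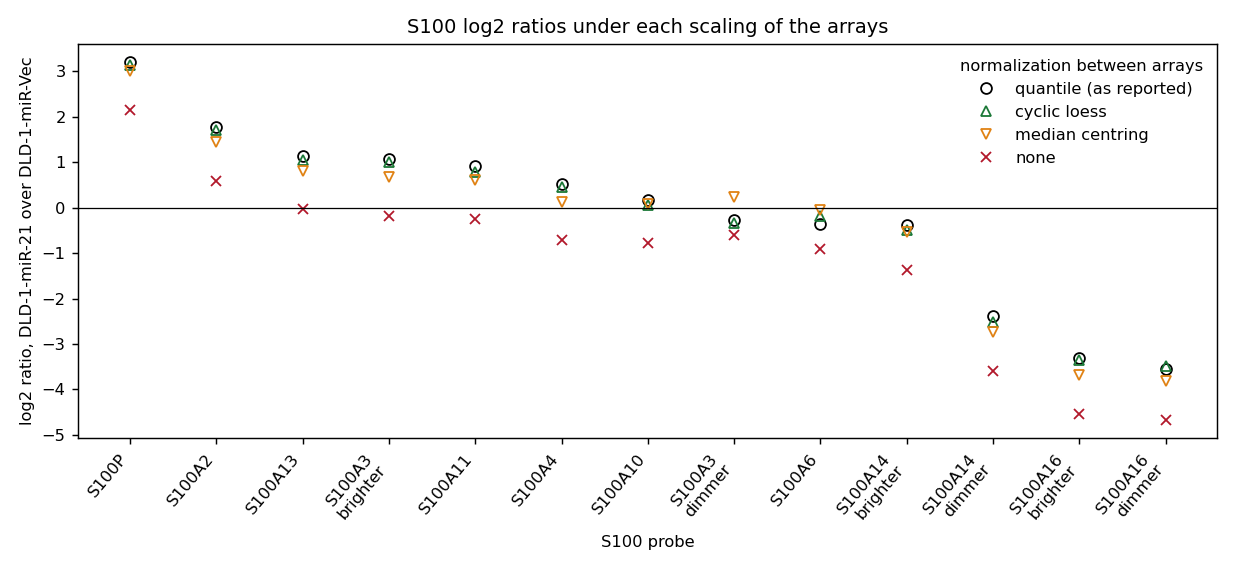
Log2 ratio (DLD-1-miR-21 minus DLD-1-miR-Vec) of each of the 13 member probes under quantile normalization, cyclic loess, median centring and no normalization between arrays. Without normalization all probes lie lower: only S100P (2.16) and S100A2 (0.59) stay above 0, and S100A13, S100A11, S100A4, S100A10 and the brighter S100A3 probe cross it.

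Leaving the arrays without normalization changed the direction of several members. Without normalization, 2 of the 13 probes were above 0 and 11 below it, with a median of -0.72. Of the 13 probes 9 passed, 2 higher and 7 lower. Over all 31741 probes 14441 passed, 416 higher and 14025 lower. Set against the median probe of that scale, S100P was at 2.79, S100A2 at 1.22 and S100A13 at 0.60. The brighter S100A3 probe was at 0.46, S100A11 at 0.38 and the dimmer S100A3 probe at 0.02. S100A4 was at -0.09, S100A10 at -0.14 and S100A6 at -0.27, while the S100A14 probes were at -0.75 and -2.96 and the S100A16 probes at -3.90 and -4.04. S100P and S100A2 were thus the highest and the S100A14 and S100A16 probes the lowest of the family with and without normalization. The sign of the ratio changed for S100A13, S100A11, S100A4, S100A10 and the brighter S100A3 probe.

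Along chromosome 1, RefSeq places the family in the order S100A10, S100A11, S100A9, S100A12, S100A8, S100A7A, S100A7L2, S100A7, S100A6, S100A5, S100A4, S100A3, S100A2, S100A16, S100A14, S100A13 and S100A1. Neighbors in this order differed widely. S100A2, at 1.77, lies next to S100A16, at -3.30 and -3.54, which lies next to S100A14, at -0.37 and -2.39. S100A14 lies next to S100A13, at 1.14. The members with decreases that passed were thus adjacent to each other, between members with positive log2 ratios after normalization.

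**Figure D3:**
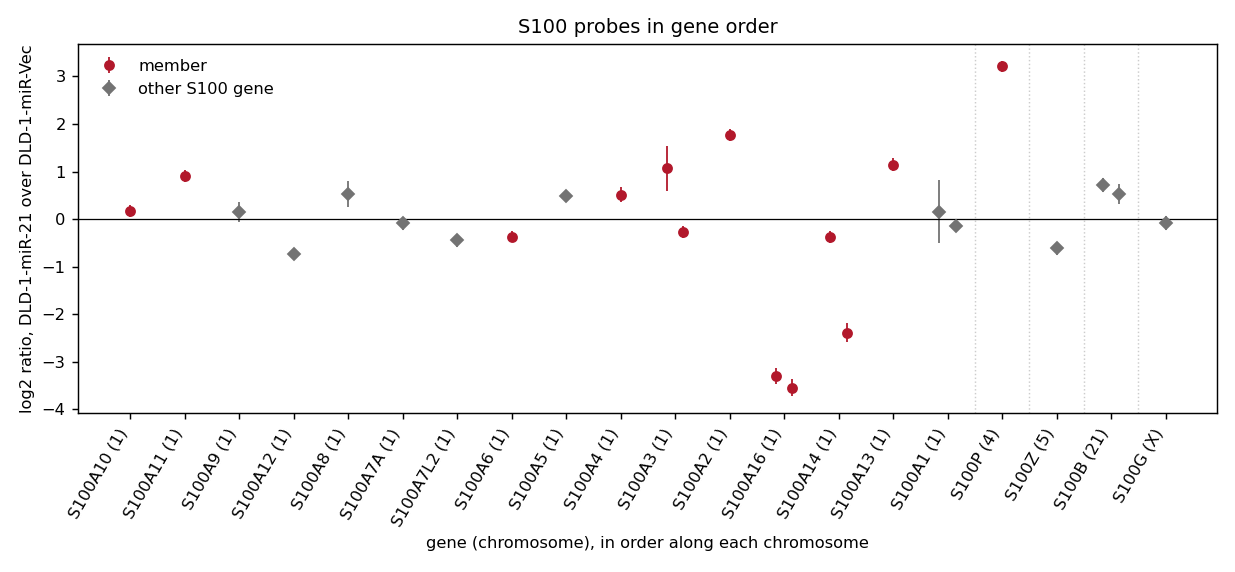
Log2 ratio (DLD-1-miR-21 minus DLD-1-miR-Vec) of each S100 probe in gene order on chromosome 1, followed by S100P, S100Z, S100B and S100G on chromosomes 4, 5, 21 and X; error bars are the standard errors of the limma fit. S100A16 (-3.30 and -3.54) lies between S100A2 (1.77) and S100A14 (-0.37 and -2.39), and the genes outside the 10 members stay between -0.73 and 0.72.

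Of 11 other genes, 10 had a probe, with 12 probes in all, of which 9 lay below the median intensity on all 4 arrays. In the limma fit 2 probes were higher and 2 lower (33.3% of 12, against 44.8% of all probes), with a median log2 ratio of 0.04, and at an unadjusted p under 0.05 it was 2 higher and 3 lower. S100B, best known from astrocytes, rose in DLD-1-miR-21 cells to 113 and 106, against 57 and 38 in DLD-1-miR-Vec cells (log2 ratio 0.72, standard error 0.15, adjusted p = 0.0214), while its other probe gave 0.53 (adjusted p = 0.106). S100A5, known from olfactory neurons, rose to 434 and 419 in DLD-1-miR-21 cells, against 270 and 307 in DLD-1-miR-Vec cells (log2 ratio 0.49, standard error 0.13, adjusted p = 0.0363), but lost its call under cyclic loess (adjusted p = 0.0618) and was at -0.29 without normalization. S100A12, a calgranulin of neutrophils, fell to 208 and 209 in DLD-1-miR-21 cells, against 360 and 395 in DLD-1-miR-Vec cells (log2 ratio -0.73, standard error 0.12, adjusted p = 0.0123). S100Z fell to 184 and 157 in DLD-1-miR-21 cells, against 299 and 273 in DLD-1-miR-Vec cells (log2 ratio -0.61, standard error 0.13, adjusted p = 0.0245). Both decreases lost their calls under median centring, with adjusted p of 0.0599 and 0.214. The calprotectin subunits did not pass, S100A8 with 211 and 239 in DLD-1-miR-21 cells against 192 and 99 in DLD-1-miR-Vec cells (log2 ratio 0.53, adjusted p = 0.171) and S100A9 with 74 and 36 in DLD-1-miR-21 cells against 42 and 45 in DLD-1-miR-Vec cells (log2 ratio 0.15, adjusted p = 0.59). S100A1, a member of heart muscle, gave 0.16 and -0.15 on its 2 probes, S100G -0.08, S100A7A -0.09 and S100A7L2, a pseudogene in RefSeq, -0.45, and none of these passed. Without DLD-1-miR-21 replicate 1, DLD-1-miR-21 replicate 2 or DLD-1-miR-Vec replicate 2, 0 of the 12 probes passed, and 2, 5 and 7 had an unadjusted p under 0.05 (limma). Without normalization 4 were lower and none higher, where 14025 of all 31741 probes were lower and 416 higher.

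**Figure D4:**
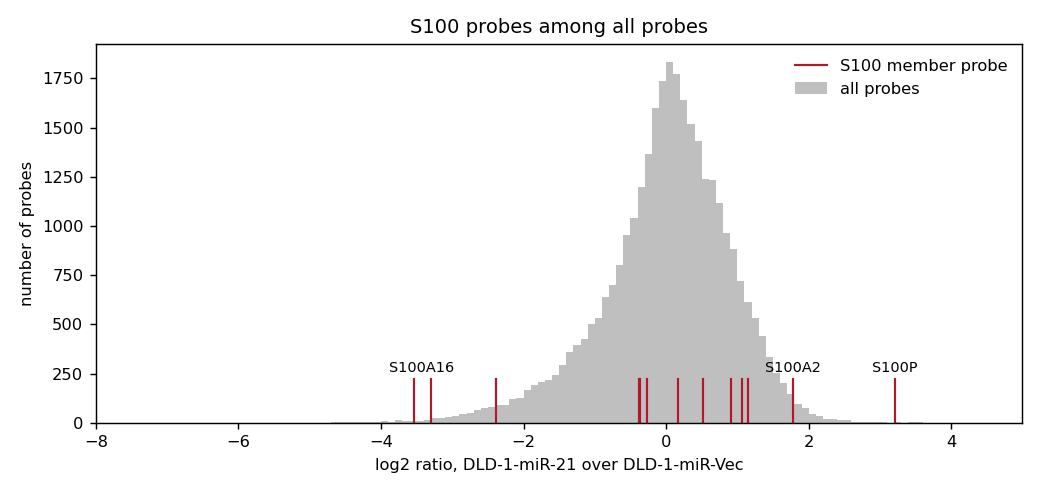
Number of probes by log2 ratio (DLD-1-miR-21 minus DLD-1-miR-Vec) in bins of 0.1 over all 31741 probes, with the 13 S100 member probes marked by vertical lines. S100P (3.21) lies at the far right of the distribution and both S100A16 probes (-3.30 and -3.54) at the far left, while the median member probe lies at 0.17 and the median of all probes at 0.07.

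Annexins bind membranes in the presence of calcium and are the best known S100 partners. Of 11 annexin probes 1 was higher and 2 lower (27.3%, against 44.8% of all probes), with a median log2 ratio of 0.06. ANXA6, an annexin with a duplicated core, fell to 1518 and 1390 in DLD-1-miR-21 cells, against 9246 and 9450 in DLD-1-miR-Vec cells (log2 ratio -2.64, standard error 0.12, adjusted p = 0.00196). ANXA2, the partner of S100A10, fell on its only probe to 566 and 567 in DLD-1-miR-21 cells, against 986 and 1198 in DLD-1-miR-Vec cells (log2 ratio -0.88, standard error 0.15, adjusted p = 0.0119). S100A10 itself gave 0.17. Which part of the ANXA2 transcript this probe reads was not examined. ANXA10 rose by 0.47 (adjusted p = 0.0343) at 101 or less on every array, and ANXA1, the partner of S100A11, gave 0.12 (adjusted p = 0.462). The number of annexin calls depended on which arrays were kept. Without normalization 9 annexin probes were lower, where 14025 of all 31741 probes were lower and 416 higher.

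Of 30 probes for the other binding partners and receptors, 3 were higher and 9 lower (40%, against 44.8% of all probes), with a median log2 ratio of -0.39. S100PBP, named as an S100P binding protein, fell to 296 and 194 in DLD-1-miR-21 cells, against 1218 and 1446 in DLD-1-miR-Vec cells (log2 ratio -2.25, standard error 0.22, adjusted p = 0.00391). Its other probe gave -0.87 (adjusted p = 0.0526). Ezrin, encoded by EZR, gave 0.43 (adjusted p = 0.0524) and RAGE, encoded by AGER, gave -0.09 (adjusted p = 0.731). MYH9, the heavy chain of non-muscle myosin IIA that S100A4 binds, fell to 5107 and 4286 in DLD-1-miR-21 cells, against 8580 and 10475 in DLD-1-miR-Vec cells (log2 ratio -1.01, adjusted p = 0.0126). PPFIBP1, or liprin beta 1, another S100A4 partner, fell by 1.28 on its dimmer probe (adjusted p = 0.0048), and its brighter probe gave 0.32 (adjusted p = 0.27). Of the S100A6 partners, SUGT1 had a log2 ratio of -0.53 that passed (adjusted p = 0.0307) and CACYBP one of -0.51 that did not (adjusted p = 0.0971). SYT1, a calcium sensor of secretory vesicles that joins S100A13 in the FGF1 release complex, rose by 1.57 on the log2 scale (standard error 0.38, adjusted p = 0.0305), with DLD-1-miR-Vec arrays that differed by 1.00, and lost its call under cyclic loess (adjusted p = 0.0622). AHNAK, a giant scaffold that binds S100A10, passed with opposite signs on 2 of its 3 probes, at 0.60 (adjusted p = 0.0272) and -0.53 (adjusted p = 0.0279), and the remaining probe gave -0.13 (adjusted p = 0.572). The scavenger receptor CD36 did so too, at 0.52 (adjusted p = 0.0344) and -1.77 (adjusted p = 0.00233), and its remaining probe gave -0.43 (adjusted p = 0.112). The number of these calls depended on which arrays were kept. The 12 calls became 20, all lower, without normalization, where 14025 of all 31741 probes were lower and 416 higher.

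The S100-fused type proteins of the skin barrier carry an S100 domain at their start and are encoded beside the S100 genes on chromosome 1. After normalization all 10 of their probes had a positive log2 ratio, with a median of 0.49, against 0.07 over all probes. Of the 10, 5 passed (50%, against 44.8% of all probes). CRNN (0.05), TCHH (0.12) and an FLG2 probe (0.16) stood only at percentiles 48.9, 52.7 and 55.2 of all probes. The deposited TCHH intensities pointed the other way, at 127 and 181 for DLD-1-miR-21 and 210 and 211 for DLD-1-miR-Vec. Without normalization, the ratio was computed only for 1 probe each of FLG, HRNR and TCHHL1, and these were positive (1.26, 0.23 and 0.32). The 10 probes were dim, 9 of them below the array median on all 4 arrays. FLG, which encodes filaggrin, rose to 507 and 542 in DLD-1-miR-21 cells, against 118 and 84 in DLD-1-miR-Vec cells (log2 ratio 1.94, standard error 0.16, adjusted p = 0.00302), and by 0.46 on its other probe (adjusted p = 0.0496). HRNR, or hornerin, rose to 225 and 238 in DLD-1-miR-21 cells, against 138 and 106 in DLD-1-miR-Vec cells (log2 ratio 0.72, adjusted p = 0.021), while its other probe gave 0.38 (adjusted p = 0.391). TCHHL1 rose to 90 and 115 in DLD-1-miR-21 cells, against 55 and 39 in DLD-1-miR-Vec cells (log2 ratio 0.65, adjusted p = 0.0318). Without DLD-1-miR-21 replicate 1 or DLD-1-miR-Vec replicate 2, 1 of the probes passed, without DLD-1-miR-21 replicate 2 none did (2 at an unadjusted p under 0.05, limma), and without normalization 1 did.

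The probes whose pattern over the 4 arrays was most like that of S100P were those of FUT3, a fucosyltransferase of Lewis antigens (Euclidean distance of the centred log2 values 0.221), KCNQ1, a potassium channel subunit (0.294), ENTPD3, an ectonucleotidase (0.303), KLK10, a kallikrein-related peptidase (0.313), and VASH2, a tubulin carboxypeptidase (0.326). KLK10, for example, had 51675 and 56315 in DLD-1-miR-21 cells and 7435 and 6717 in DLD-1-miR-Vec cells. The likeness was measured over 4 arrays of 2 lines, and these genes carry no test here.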

How the data were processed

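RNA of the lines was amplified, labeled with Cy5 and hybridized to 4 arrays. The authors deposited 1 linear intensity per probe and array, for 31741 probes. As up to 176 probes of an array had negative values, some background subtraction preceded deposition. How the arrays were scanned and whether the authors normalized them is not given in the sources used here. Gene names are those of the platform annotation, parts of which may be outdated: 24740 probes carried 1 symbol, 977 several and 6024 none, and only the first were named. Groups were taken from the sample titles.

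Intensities were quantile-normalized, 50 was added, and log2 values were compared between the lines, probe by probe, on group alone, with lmFit and eBayes of limma 3.58.1 in R 4.3.3. Benjamini-Hochberg adjustment ran over the whole array, and an adjusted p under 0.05 is called passed, higher or lower. Levels of different probes were not tested against each other. They were only ranked as brighter or dimmer, set against the array median, or summed over marker lists. The number of arrays limits the precision. Across probes r was 0.990 between DLD-1-miR-21 arrays, 0.984 between DLD-1-miR-Vec arrays and 0.909 to 0.940 between the lines. The fit was tested on simulated arrays.

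The members, the other gene lists, the tests and the alternatives were chosen with earlier results of these data known. Named were all S100 genes with a probe, up to 3 genes with the largest increase and up to 3 with the largest decrease past the threshold in each other list, PDCD4, and the 5 probes nearest to S100P. Direct partners of a member (EZR, AGER, MYH9, SUGT1, CACYBP and ANXA1) and genes beside the cluster were named after their values were seen. The alternatives were cyclic loess, median centring, no normalization, offsets of 16 and 100, a floor of 32, removal of the dimmest 25% or 50%, robust eBayes with a variance trend, the replicate number as a block, and 1 array left out at a time. Sequences and gene order came from RefSeq on GRCh38.p14, where all 10 members matched. A planned comparison of member protein sequences was not run.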

Additional observations from a re-analysis of the deposited data

How the results depend on the processing

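Depth in the sense of signal over background limits the dim probes, whose ratios the added offset of 50 draws toward 0, and 2 arrays per line limit all calls. The 13 member probes kept their direction under cyclic loess, the other offsets, the floor, the filters, the variance trend, the replicate block and each left-out array, except that the filters removed the dimmer S100A3 probe and left 12 of them, and this probe turned to 0.24 under median centring without passing. Without normalization between arrays the whole distribution moved, from a median log2 ratio of 0.07 to -0.63, and the calls became 14441 with 416 higher and 14025 lower (2.88% higher, against 51.3% with normalization). On that scale S100A4 was at -0.72, S100A11 at -0.25, S100A10 at -0.77, S100A13 at -0.034, S100A5 at -0.29 and PVALB at -0.074, all reversed, the median member probe was at -0.72, and 1 S100-fused type probe, 9 annexin probes and 20 partner probes passed. Without the dimmest 50% of probes, 9009 of the 15871 probes left passed, 0 of the 1 other S100 probe left (0 at an unadjusted p under 0.05, limma), and no S100-fused type probe was left to test (0 calls). Without the dimmest 25%, 2 of 3 S100-fused type probes passed. Leaving out 1 array at a time gave 0 to 12680 calls over the array, 0 to 8 of the member probes, 0 to 4 of the other S100 probes, 0 to 4 of the S100-fused type probes, 0 to 3 of the annexin probes, 0 to 7 of the partner probes and 0 to 22 of the other EF-hand probes, with 0 in every case without DLD-1-miR-21 replicate 2, the lone array of a line being assumed to vary like the other line. Under the other settings 6 (median centring) to 10 (variance trend) of the 13 member probes passed. Of all 31741 probes, 14184 passed under median centring and 14798 under the variance trend. The median member ratio ranged from 0.09 to 0.27 with 1 array left out, and from 0.07 (cyclic loess) to 0.34 (both filters on dim probes) under the other settings with normalization. The cause was not tested. Same-numbered arrays did not deviate together after quantile normalization, which removes array-wide shifts (r = -0.0685 of their deviations from the group means). What they share beyond the number is not given in the labels and was not tested. With the replicate number as a block, 11422 probes passed over the array, 7 of the member probes, 2 of the other S100 probes, 2 of the S100-fused type probes and 7 of the partner probes.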

Other observations

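Calcium-binding EF-hand proteins outside the S100 family were called in both directions after normalization. Without normalization almost all their calls were lower (1 higher and 24 lower), as over the whole array (416 higher and 14025 lower). After normalization 28 of 40 probes (70%) passed, 11 higher and 17 lower, against 44.8% of all probes, with a median log2 ratio of -0.14. Of the 40, 25 lay above the array median on all 4 arrays. As the list was chosen with earlier results of these data known, nothing is read from the number of these calls. Leaving out DLD-1-miR-21 replicate 1 gave 15 of these calls, and leaving out its replicate 2 gave 0 (24 at an unadjusted p under 0.05, limma). CAPNS1, the small regulatory subunit of calpain, fell to 1172 and 981 in DLD-1-miR-21 cells, against 23610 and 26166 in DLD-1-miR-Vec cells (log2 ratio -4.47, standard error 0.15, adjusted p = 0.00196). PDCD6, also called ALG-2, fell to 1095 and 787 in DLD-1-miR-21 cells, against 7734 and 9616 in DLD-1-miR-Vec cells (log2 ratio -3.15, standard error 0.22, adjusted p = 0.00245), and its other probe gave -2.02 (adjusted p = 0.00223). HPCAL1, a neuronal calcium sensor protein, fell to 97 and 108 in DLD-1-miR-21 cells, against 850 and 939 in DLD-1-miR-Vec cells (log2 ratio -2.63, standard error 0.13, adjusted p = 0.00196), and its other probe gave -1.33 (adjusted p = 0.0235). VSNL1, or visinin-like 1, rose to 11890 and 12550 in DLD-1-miR-21 cells, against 3913 and 3453 in DLD-1-miR-Vec cells (log2 ratio 1.72, standard error 0.13, adjusted p = 0.00269), and CALML6, a calmodulin-like protein, rose to 278 and 225 in DLD-1-miR-21 cells, against 56 and 60 in DLD-1-miR-Vec cells (log2 ratio 1.48, standard error 0.14, adjusted p = 0.00391), while the other CALML6 probe gave -0.13 (adjusted p = 0.631). PVALB, or parvalbumin, had 3507 and 4854 in DLD-1-miR-21 cells and 1392 and 2283 in DLD-1-miR-Vec cells (log2 ratio 1.19, standard error 0.30, adjusted p = 0.0349), and lost this call under median centring (adjusted p = 0.0665).

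Beyond S100A1, the last S100 gene of the chromosome 1 cluster, the next 5 protein-coding genes in RefSeq order were looked at after the values of the cluster had been seen. SNAPIN, a partner of the SNARE complex, fell to 2804 and 2168 in DLD-1-miR-21 cells, against 11085 and 11822 in DLD-1-miR-Vec cells (log2 ratio -2.19, standard error 0.17, adjusted p = 0.00272). ILF2, an RNA-binding protein, fell to 2732 and 2228 in DLD-1-miR-21 cells, against 26694 and 27070 in DLD-1-miR-Vec cells (log2 ratio -3.42, standard error 0.15, adjusted p = 0.00196) on 1 probe, while its other probe gave -0.08 (adjusted p = 0.628), with 41401 and 38600 in DLD-1-miR-21 cells and 40780 and 43829 in DLD-1-miR-Vec cells. NPR1, a receptor of natriuretic peptides, rose to 1525 and 1649 in DLD-1-miR-21 cells, against 734 and 562 in DLD-1-miR-Vec cells (log2 ratio 1.24, standard error 0.17, adjusted p = 0.00765). CHTOP and INTS3 gave 0.03 (adjusted p = 0.882) and -0.16 (adjusted p = 0.467).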
